A study of Mus musculus with 6 samples.

Results

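Abundant transcripts of ileal crypts that remain once a set of gene families and leading crypt products is left out by name were described across wild-type and Tl1a-transgenic mice. Genes were taken where the geometric mean of the deposited values reached 300 in each genotype. Alpha-defensins, other leading Paneth and goblet cell products, ribosomal RNA, ribosomal proteins, translation factors, transporters, Rab proteins, respiratory chain, keratin, junction, integrin, histone and numbered predicted genes were then left out by name. This gave 25 of the 7120 genes in the table, while 32 genes of the left-out families met the same limit. Since the genes were chosen by their levels in both genotypes, these levels and the differences between them are a description and carry no test.

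RNA came from crypts cut by laser from fixed sections of the ileum of C57BL/6 mice aged 3 months. There were 3 libraries from WT mice and 3 from Tl1a-tg mice, which carry a transgene for the cytokine TL1A, a relative of tumour necrosis factor. The promoter that drives the transgene is not given in the labels, and neither is whether each library came from its own mouse. The deposited values are a fitted mean for each gene in each genotype, scaled by a factor for each library, so no gene has a spread of its own between libraries and no SD is given. Library factors ran from 0.591 for WT replicate 2 to 1.46 for WT replicate 3. Levels below are fitted means at the common depth of these factors, in reads per library. Depth in reads is unknown, so no counting interval is given. The sums of the deposited values lay between 314186 and 774249 per library.

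Crypts of the small intestine house stem cells at their base, Paneth cells between them and goblet and absorptive progenitors above. Secretory cells release antimicrobial proteins, lectins, lipases and mucus, and the surrounding epithelium carries antibodies from the tissue to the lumen through the polymeric immunoglobulin receptor. Any such cell also needs RNA polymerase, splicing scaffolds, structural RNAs and cytoskeleton, and these supply many of the abundant transcripts that are not specific to a cell type. In bulk samples such as these, fewer cells of a type and less RNA per cell cannot be told apart.

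The crypt label was checked against markers. All 5 Paneth cell markers lay at a fitted mean of 10 or more in both genotypes, with summed levels of 16452 in Tl1a-tg and 20814 in WT. Of the 4 goblet cell markers listed, 3 reached 10 in Tl1a-tg and 2 in WT, with sums of 20581 and 20430. Agr2 was below 10 only in WT (186 and 0.176), and Fcgbp was below 10 in both (near 0 and 1.08). Of the 4 stem cell markers listed, 4 reached 10 in Tl1a-tg and 3 in WT, with sums of 1136 and 969. The stem cell marker below 10 in WT was Lgr5 (131 and 0.342). Absorptive enterocyte markers summed to 139 and 13.1, and those of tuft cells to 24.1 and 211.7. Enteroendocrine markers summed to 29.1 and 114.3, the mast cell marker to 175 and 363, and the T cell marker was near 0 in Tl1a-tg and at 128 in WT. Fibroblast markers summed to 67.5 and 4.06 and the smooth muscle marker stayed below 1 in both. Myeloid markers summed to 11.4 and 3.15, and the plasma cell and neuronal markers lay below 1.1 in both. No marker of endothelium, red blood cells or exocrine pancreas was analysed here. The part of these differences in the results below was not tested.

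The 25 genes accounted for 6.74% of all fitted signal in Tl1a-tg libraries and for 7.44% in WT libraries. All fitted signal here includes the ribosomal RNA Rn45s, at 127754 in Tl1a-tg and 153823 in WT. Of the 25 genes, 12 were higher in Tl1a-tg and 13 in WT, and 23 differed by less than 1 on the log2 scale. With the median of all measured genes set to 0, 21 were higher in Tl1a-tg. Only Xkrx and Clca4 lay beyond a 2-fold difference, in opposite directions. Summed over the 25 genes the level was 32454 in Tl1a-tg and 39527 in WT, and without Xkrx it was 30870 and 30496. The lower sum in Tl1a-tg therefore came from a single gene.

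**Figure D1:**
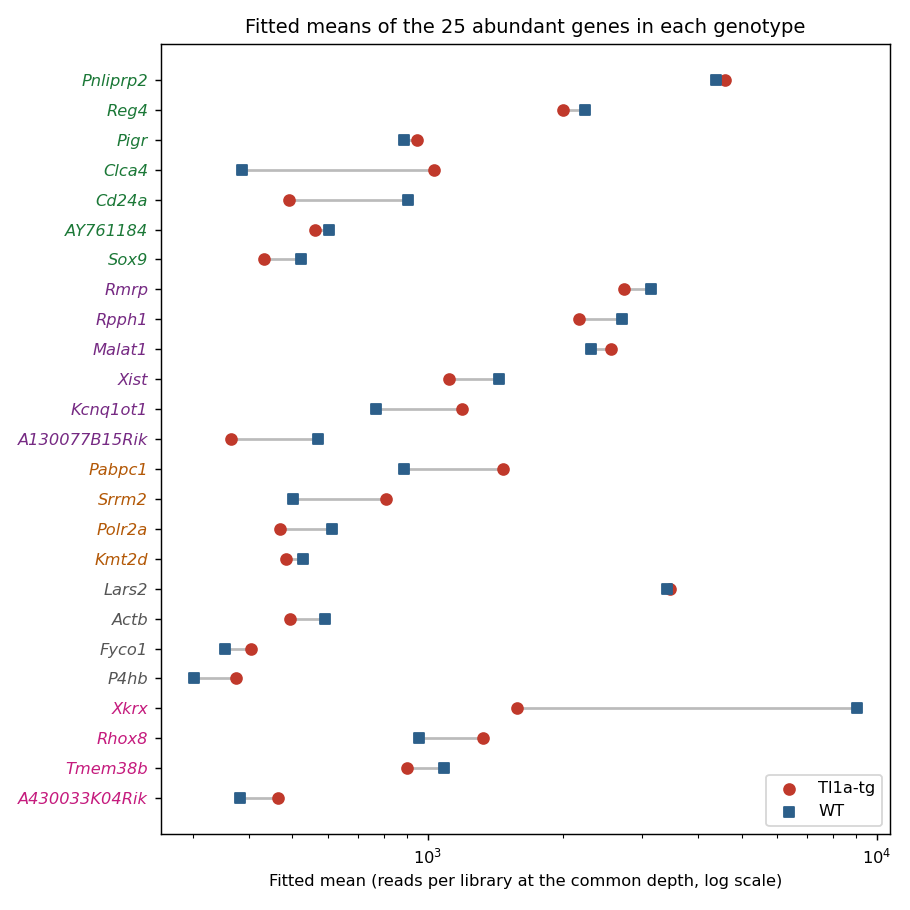
Fitted means of the 25 genes (reads per library at the common depth, log axis), with Tl1a-tg as red circles and WT as blue squares joined by a line. Gene names are coloured by role, from epithelial products at the top, through noncoding RNAs, transcription and RNA handling and housekeeping proteins, to genes not usual for crypts at the bottom. The pair for Xkrx (1584 and 9031) lies furthest apart, followed by Clca4 (1034 and 386).

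Promoters are shown for Xkrx, the gene with the greatest difference between genotypes, for Pnliprp2, the epithelial product with the highest level per kb, and for P4hb, the gene nearest to the limit. Each is the 250 bases before the start in RefSeq, build GRCm38.p6, read 5′ to 3′, with the CCAAT box, the GC box (GGGCGG) and the TATA box (TATAAA) on either strand in capitals.
Xkrx, chrX:134162960-134163209, minus strand: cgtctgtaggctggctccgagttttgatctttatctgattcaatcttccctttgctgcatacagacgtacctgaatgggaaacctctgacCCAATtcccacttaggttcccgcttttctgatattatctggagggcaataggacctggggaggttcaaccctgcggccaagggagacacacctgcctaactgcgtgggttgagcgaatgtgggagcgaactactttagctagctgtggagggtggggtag
Pnliprp2, chr19:58759473-58759722, plus strand: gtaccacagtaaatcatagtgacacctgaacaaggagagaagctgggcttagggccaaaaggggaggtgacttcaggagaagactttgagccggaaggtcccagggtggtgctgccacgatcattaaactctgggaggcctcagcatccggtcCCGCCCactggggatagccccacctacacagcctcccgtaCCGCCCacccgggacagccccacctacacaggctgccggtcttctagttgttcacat
P4hb, chr11:120573254-120573503, minus strand: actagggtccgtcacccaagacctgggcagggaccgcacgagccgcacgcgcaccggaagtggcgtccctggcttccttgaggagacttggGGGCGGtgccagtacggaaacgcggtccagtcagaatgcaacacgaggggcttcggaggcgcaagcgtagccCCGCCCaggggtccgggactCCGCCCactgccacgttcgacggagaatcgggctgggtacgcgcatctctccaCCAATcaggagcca

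RefSeq promoter entries were found for 15 of the 25 genes. The GC box GGGCGG was present in 6 of the 15 (40.0%), against 32.9% of the 27025 genes with an entry. CCAAT was present in 6 (40.0%), against 34.5% of all, and TATAAA in 2, Polr2a and Xist, against 13.0% of all. None of the 3 motifs was present in 5 promoters. These shares lay near those of all genes. The 15 ranged from Reg4, with 37.2% GC and 2 CG dinucleotides, to Kmt2d, with 67.6% and 26.

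Of the epithelial products, Pnliprp2, Reg4, Pigr, the defensin-cluster gene AY761184 and Sox9 had similar fitted means in the genotypes, while Clca4 was higher in Tl1a-tg and Cd24a in WT. None of these 7 genes passed the authors' DESeq2 test at an adjusted p below 0.05, which 3.67% of all genes with an adjusted p passed. Pnliprp2, a lipase related to pancreatic lipase, had deposited values of 4642, 5064 and 3589 in Tl1a-tg replicates 1 to 3 and of 5845, 2588 and 6378 in WT replicates 1 to 3. The WT libraries spanned the Tl1a-tg libraries, and the order of libraries within a genotype is the same for every gene because it comes from the library factors. Its fitted means were 4596 and 4377, and the log2 fold change in the authors' deposited table was 0.07 (SE 1.90).

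Reg4, a secreted lectin of the regenerating family, had fitted means of 1996 (Tl1a-tg) and 2244 (WT). Pigr, the receptor that carries polymeric immunoglobulins across the epithelium, had 947 and 888. Sox9, a transcription factor that Paneth cells need to form, had 432 and 524. Each of these pairs differed by less than 1.3-fold. In the plasma cell and immunoglobulin list, Pigr was the only one of 4 listed genes measured in both genotypes, and the plasma cell chaperone Mzb1 was below 1 in both. Only 2 of the 4 were given an adjusted p, and 0 passed. AY761184, which lies between Defa34 and Defa24 among protein-coding genes in GENCODE, had 562 and 602. Reads may be divided between such neighbouring copies, so its values are uncertain.

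Clca4, a name from the family of calcium-activated chloride channel regulators, had deposited values of 1044, 1140 and 808 in Tl1a-tg and 515, 228 and 562 in WT. All 3 values of Tl1a-tg were above those of WT, as the library factors and the fitted means together require. Its fitted means were 1034 and 386, a 2.68-fold difference, and the log2 fold change in the authors' deposited table was 1.42 with an SE of 2.26. The 95% interval of -3.02 to 5.86 on the log2 scale included no change. The name Clca4 is an older synonym of both Clca3b and Clca4a in RefSeq, so the gene behind the row is uncertain. Its place among the epithelial products is uncertain for the same reason. Cd24a, a membrane glycoprotein found on Paneth and other secretory cells, had 493 and 906, with a log2 fold change of -0.88 (SE 2.54) in the authors' deposited table.

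A wider list of Paneth cell genes held 13 listed genes, of which 3 were members (Pnliprp2, Cd24a and Sox9) and another, Mptx2, was left out by name. Of the 10 measured at 10 or more in both genotypes, 5 were higher in Tl1a-tg and 5 in WT, against 37.1% higher in Tl1a-tg over all measured genes. Of the 10 given an adjusted p, 0 passed the authors' DESeq2 test, against 3.67% over all genes. Their median log2 fold change was -0.13, against -0.38 over the 1379 genes measured in both genotypes. Among the others, Habp2, a secreted serine protease, had 101 and 344 and Ephb3, the ephrin receptor that positions Paneth cells, had 145 and 299. Nupr1, a stress-induced nuclear protein, had 237 and 33.5.

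Noncoding RNAs made up 6 of the 23 members whose names matched a current RefSeq symbol (26.1%), against 4.24% of the 6724 matched names in the table. Leaving out families by name raised this share: over all 57 genes at the limit it was 6 of 49 matched names (12.2%). Both the ribozyme RNAs and the nuclear long noncoding RNAs were among them, with 2 of the 6 higher in Tl1a-tg and 4 in WT, or 5 and 1 with the median of all measured genes set to 0. None passed the authors' test. Rmrp, the RNA of the ribonuclease MRP that processes ribosomal RNA, had fitted means of 2731 (Tl1a-tg) and 3149 (WT). Rpph1, the RNA of ribonuclease P that trims transfer RNA, had 2176 and 2713. Each pair differed by less than 1.3-fold. Neither RNA normally carries a poly(A) tail, and the labels name a stranded mRNA library kit.

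Malat1, a nuclear speckle RNA, had fitted means of 2565 (Tl1a-tg) and 2307 (WT). Xist, which coats the inactive X chromosome of females, had 1115 and 1440. The sex of the mice is not given in the labels. A fitted mean per genotype does not show which libraries held the Xist reads. Kcnq1ot1, an imprinted antisense RNA, had 1194 and 769, while its partner Kcnq1 on the opposite strand was below 1 in both genotypes. A130077B15Rik, annotated as a long noncoding RNA, had 364 and 570. Of the list of nuclear long noncoding RNAs, 7 genes were listed, 3 of them members. Of the 5 with an adjusted p, 0 passed the authors' DESeq2 test, against 3.67% over all genes. Neat1, the scaffold RNA of paraspeckles, had 144 and 56.9, and Gas5 had 61.1 in Tl1a-tg and 0.176 in WT.

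Of the genes for transcription and RNA handling, Pabpc1 and Srrm2 were higher in Tl1a-tg, while Polr2a and Kmt2d had lower fitted means there, Kmt2d only without the median of all genes set to 0. None passed the authors' test. Pabpc1, which binds poly(A) tails, had deposited values of 1488, 1624 and 1151 in Tl1a-tg and of 1186, 525 and 1295 in WT. The lowest Tl1a-tg value was below those of WT replicates 1 and 3. The spread within a genotype comes from the library factors, so this overlap does not show how the gene varied between libraries. Its fitted means were 1474 and 888, and the log2 fold change in the authors' deposited table was 0.73 (SE 1.95).

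Srrm2, a scaffold of nuclear speckles that takes part in splicing, had fitted means of 808 (Tl1a-tg) and 501 (WT). Polr2a, the largest subunit of RNA polymerase II, had 470 and 614. Kmt2d, a methyltransferase that marks enhancers, had 484 and 527. In the authors' deposited table these 3 had log2 fold changes of 0.69, -0.38 and -0.12, with SEs of 2.53, 2.74 and 2.74. Of the RNA binding and splicing list, 14 genes were measured in both genotypes, 5 higher in Tl1a-tg and 9 in WT, with a median log2 fold change of -0.93. This split was near that of all measured genes, of which 37.1% were higher in Tl1a-tg. Of its 19 genes with an adjusted p, 0 passed. The other 12 measured genes included Ddx5, an RNA helicase, at 119 and 336, and Son, another speckle scaffold, at 188 and 92.3. Of the chromatin and transcription list, 20 were measured, 6 higher and 14 lower, with a median of -0.29. Of its 21 genes with an adjusted p, 1 passed the authors' DESeq2 test, against 3.67% over all genes. This was Nfia, with a fitted mean near 0 in WT.

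Housekeeping proteins lay close together in the genotypes. Lars2, the leucyl-tRNA synthetase of mitochondria, had deposited values of 3498, 3816 and 2704 in Tl1a-tg and of 4561, 2019 and 4976 in WT. The WT values spanned those of Tl1a-tg through the library factors. Its fitted means were 3463 and 3415. The log2 fold change of 0.02 in the authors' deposited table was the smallest in size of the 25, with an SE of 1.85.

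Actb, cytoplasmic beta-actin, had fitted means of 494 (Tl1a-tg) and 592 (WT). P4hb, a protein disulphide isomerase of the endoplasmic reticulum, had 374 and 302. Fyco1, an adaptor that moves autophagosomes along microtubules, had 404 and 354. These 3 pairs differed by less than 1.3-fold. In the actin and myosin list, 15 genes were measured in both genotypes, 5 higher and 10 lower in Tl1a-tg, and 0 of the 19 with an adjusted p passed the authors' DESeq2 test. Myh9, a nonmuscle myosin heavy chain, had 153 and 492, and Cfl1, the actin-severing cofilin, had 146 and 140. In the list of endoplasmic reticulum folding genes, 11 were measured, 4 higher and 7 lower, and 0 of the 14 with an adjusted p passed. Both splits were near the 37.1% higher among all measured genes, and both counts stand against 3.67% called over all genes. Calr, the chaperone calreticulin, had 318 and 175.

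The remaining 4 genes have no well-known role in crypts. Xkrx, an X-linked gene of the XK-related family of membrane proteins, was the gene with the greatest difference between genotypes. Its deposited values were 1600, 1745 and 1237 in Tl1a-tg and 12061, 5340 and 13160 in WT. Every WT value was above every Tl1a-tg value, as the library factors and the fitted means together require, so this shows no agreement of replicates. Its fitted means were 1584 and 9031, a 5.70-fold difference. The log2 fold change in the authors' deposited table was -2.51 with an SE of 2.44, and its 95% interval of -7.30 to 2.28 included no change. The shrunken value in the authors' deposited table was -0.33. Xkrx overlaps Nox1 on the same strand in GENCODE, and Nox1 was not analysed here.

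Rhox8, a homeobox gene of the X-linked reproductive cluster that is known from Sertoli cells of the testis, had deposited values of 1342, 1464 and 1038 in Tl1a-tg and of 1277, 566 and 1394 in WT. The values of the groups overlapped, which follows from the library factors and the fitted means. The fitted means were 1329 and 957. Tmem38b, an ion channel of the endoplasmic reticulum, had 902 and 1089. Tmem38b overlaps the ribosomal RNA gene n-R5s185 on the same strand in GENCODE, and the part of that gene in these values was not tested. A430033K04Rik had 464 and 382. None of the 4 genes passed the authors' test.

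**Figure D2:**
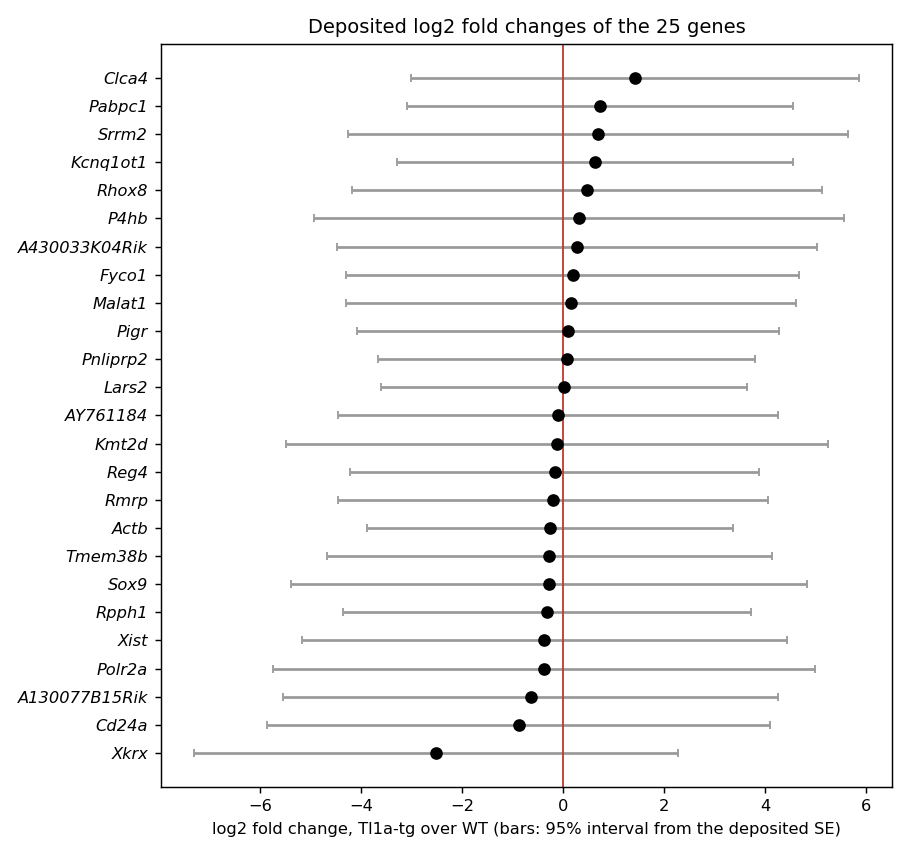
Difference of Tl1a-tg from WT as log2 fold change in the authors' deposited table for the 25 genes (points), with 95% intervals from the deposited standard error (bars), sorted by value. All 25 intervals include 0, and only Xkrx (-2.51) and Clca4 (1.42) lie beyond 1 in size.

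Among the 25 genes, 0 had an adjusted p below 0.05 in the authors' deposited table by DESeq2, against 3.67% of the 1662 genes with an adjusted p. At an unadjusted p below 0.05 the count was also 0, against 14.6% of the 2580 genes with a p-value. The smallest DESeq2 p of the 25 in the authors' deposited table was 0.304, for Xkrx (adjusted p = 0.804), and the p-values of the other 24 were above 0.5. A limit on both genotypes leaves out unequal genes, so nothing is read from these counts. The median log2 fold change of the 25 was -0.10, against -0.38 over the 1379 genes measured in both genotypes, of which 37.1% were higher in Tl1a-tg.

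The sign of small differences depended on the scaling of the libraries. The adjustment for library factors shifts all genes by 0.13 on the log2 scale, and setting the median of the 1379 measured genes to 0 shifts them by 0.38. Under at least 1 of these scalings 12 genes changed sign. Pnliprp2, Lars2 and Pigr did so without the adjustment, and Rmrp, Rpph1, Reg4, Xist, Tmem38b, AY761184, Actb, Kmt2d and Sox9 with the median set to 0. For the other 13 the sign followed from a difference larger than the opposing shift and is no sign of stability. Polr2a was at -0.0066 with the median set to 0 and Malat1 at 0.018 without the adjustment.

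Being abundant did not make these genes precisely measured. Standard errors in the authors' deposited table ran from 1.85 to 2.74 on the log2 scale, with a median of 2.27 against 3.93 over the 1379 measured genes. A 95% interval therefore spanned at least 12.3-fold to either side of the estimate (Lars2) and up to 41.3-fold (Kmt2d). The dispersion solved from these errors was 2.46 to 5.40, which corresponds to a coefficient of variation between libraries of 157% to 232%. None of the 25 genes lay at the ceiling of 13.0, where 40.8% of the 1379 measured genes lay. The 32 genes of the named families at the same limit had a median dispersion of 3.47, close to the 3.72 of the 25. Over the measured genes, the base mean of the authors' model was 0.134 to 39.6 times the fitted mean here. A model of these 6 libraries alone would give a nearly constant ratio. Errors in the authors' model may therefore rest on libraries beyond these 6, so this variation need not be that between these 6. Which libraries the model held was not tested.

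The base mean in the authors' deposited table, a mean over all libraries of their model, was not used to choose the genes. Base means follow the authors' own depth scale, while the library factors here were scaled to a geometric mean of 1. The size of a ratio is therefore arbitrary, and ratios can be compared only between genes. The ratio of the base mean to the fitted mean of these libraries fell into separate ranges. For 20 of the 25 genes the ratio was 0.185 to 0.310, and for 31 of the 32 family genes it was 0.144 to 0.316. The other 5 genes were at 0.749 (Lars2), 1.03 (Polr2a), 1.27 (Xkrx), 2.03 (Tmem38b) and 6.78 (Rhox8). Gm4841 was the family gene above that range, at 1.70, and no gene of the 57 lay between 0.35 and 0.7. Over the 1379 measured genes the median ratio was 0.196, and 8.12% reached 0.7.

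Base means in the authors' deposited table were 7752 for Rhox8 and 6747 for Xkrx, against 828 for Pnliprp2 and 399 for Reg4. Rhox8 thus had the highest base mean of the 25 genes, although it ranked 10 among the 25 by fitted mean here. Which libraries raised these 5 base means was not tested. The epithelial products lay between 0.185 and 0.310 and the noncoding RNAs between 0.217 and 0.237, so the high ratios occurred in the other groups of genes. Xkrx, the gene with the greatest difference between genotypes, was among the 5, and Clca4 was at 0.310, the highest of the other 20.

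**Figure D3:**
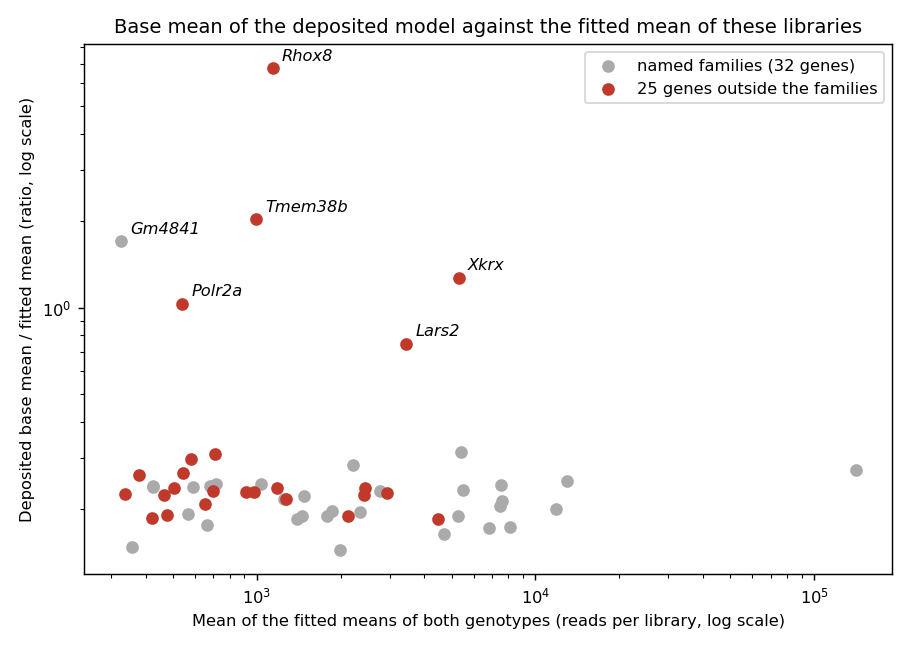
Ratio of the base mean in the authors' deposited table to the fitted mean of these libraries (log axis) against the fitted mean over both genotypes (reads per library, log axis), for the 25 genes (red) and 32 genes of the named families (grey). Lars2, Polr2a, Xkrx, Tmem38b, Rhox8 and Gm4841 stand above the band from 0.144 to 0.316 that holds the other 51 genes.

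Levels of different genes are comparable only per length, and GENCODE transcripts gave a length for 24 of the 25. Lengths ran from 281 bases for Rmrp to 93092 for Kcnq1ot1. Per kb of transcript, the short structural RNAs had the highest levels, with 9718 reads per kb in Tl1a-tg and 11206 in WT for Rmrp and 6821 and 8504 for Rpph1. By the mean of both genotypes Pnliprp2 followed with 2923 and 2784, Reg4 with 1955 and 2198, Xkrx with 551 and 3140, and AY761184 with 1116 and 1197. In WT alone, Xkrx lay above Pnliprp2 and Reg4. Lars2 had 889 and 877 and Pabpc1 523 and 315, while Actb had 257 and 309.

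Long transcripts were at the other end of this order. Xist had 62.1 and 80.2 reads per kb, Fyco1 50.8 and 44.5, Kmt2d 24.4 and 26.6 and Kcnq1ot1 12.8 and 8.26. Srrm2, at 91.1 and 56.5 per kb, and Polr2a, at 69.8 and 91.1, exchanged places between the genotypes, and neighbours this close cannot be ranked with the errors above. The limit of 300 reads per gene therefore took in long transcripts at low levels per kb beside short ones at high levels.

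**Figure D4:**
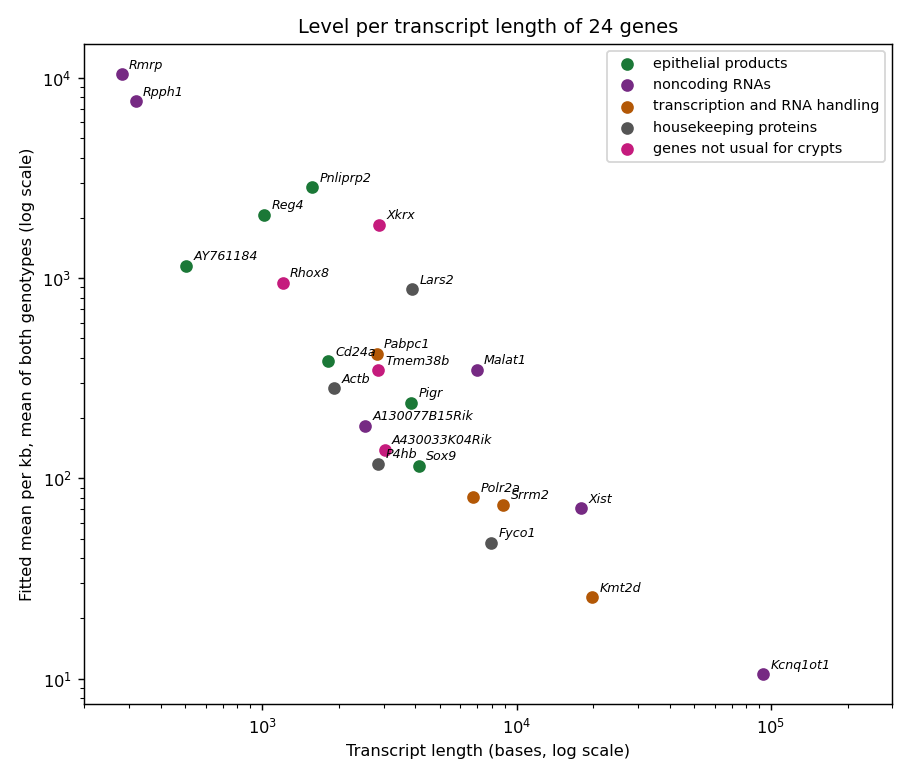
Fitted mean per kb of GENCODE transcript, mean of both genotypes (log axis), against transcript length in bases (log axis) for 24 genes, coloured by role. Rmrp and Rpph1 lie at the upper left, Pnliprp2 and Reg4 are the highest epithelial products, and Kcnq1ot1 lies at the lower right.

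In annotation, 3 members (Xkrx, Rhox8 and Xist) were on the X chromosome, where 2.97% of the matched names in the table lay. The genes of 10 members overlapped another gene in GENCODE, and in 6 of them one on the opposite strand, including Rmrp with Ccdc107, Xist with Tsix and Srrm2 with Elob. The sources used here do not give whether reads were counted by strand, so the values of these members are uncertain. Rpph1 overlapped Ccnb1ip1 on the same strand, as did Xkrx with Nox1, Tmem38b with n-R5s185 and AY761184 with Gm22447. Counting by strand would not separate these pairs, so their values are uncertain as well.

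Just inside the limit were P4hb, with geometric means of 357 (Tl1a-tg) and 317 (WT), A130077B15Rik with 348 and 597, and Fyco1 with 386 and 371. Just outside were Grk4, a G protein-coupled receptor kinase, with 312 and 287, Prrc2a with 283 and 518, and Leng8 with 280 and 331.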

How the data were processed

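RNA-seq values of 6 libraries were used, 3 of each genotype by the sample titles. The submitters' processing notes name Bowtie2 2.1.0, RSEM 1.2.15, DESeq2, Trimmomatic and FastQC with no role, and the genome build is not given in the sources used here. The authors deposited signal values per gene and library, called normalized counts in the sheet name. Within a genotype the ratio of columns was constant over genes to within 1.15e-14, so the values are fitted means times library factors, and neither limma nor a paired fit could be run. The authors' deposited tables also give a base mean (signal), log2 fold changes with standard errors, Wald scores and p-values from DESeq2, and log2 values shrunken by apeglm. Missing p-values stayed missing. If a genotype's libraries are not separate mice, the spread between them is technical only. The p-values may also rest on spread between libraries beyond these 6.

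With Python 3.11.15 and scipy 1.17.1, library factors were scaled to a geometric mean of 1, with the offset between genotypes set so that ratios of fitted means equal the deposited fold changes. Genes at 10 or more in both genotypes are called measured. Intervals are the estimate with 1.96 SE to each side. Dispersions were solved from the standard errors with means held at 0.5 or more. The solver was checked on errors computed with its own formula from the deposited values. That checks the arithmetic only, and whether the deposited errors follow the formula was not tested. Per kb levels use the longest protein-coding transcript in GENCODE M21 (any type for noncoding genes), and 23 of 25 names matched RefSeq.

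The members and gene lists were chosen with earlier results of these data known. All 25 members are named; the rule for names took the 15 highest, the 8 most unequal in each direction, 3 per group and 3 on each side of the limit. List genes that are not members were chosen as examples after their values were seen. Of the lists, those without a member were computed and are not described. Alternatives changed the limit, the scaling, the fold change and the libraries.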

Additional observations from a re-analysis of the deposited data

How the results depend on the processing

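No paired analysis was possible because the deposited values are fitted means without a spread of their own between libraries, and for the same reason the planned limma fit with a pseudocount of 1 was not run. A minimum of 200 gave 48 genes, 21 of them higher in Tl1a-tg, and a minimum of 500 gave 15. Keeping the named families gave 57 genes, 26 higher in Tl1a-tg. With the median of measured genes set to 0, 21 of the 25 were higher in Tl1a-tg, since that shifts all genes by 0.38. Leaving out 1 replicate at a time gave 24 to 27 members, 11 to 13 of them higher in Tl1a-tg, with a median log2 fold change of -0.11 to -0.04 and 0 genes called by DESeq2 in the authors' deposited table. With fitted means this only moves the limit and does not test stability.

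The median of -0.10 turned to 0.28 with that centring and to 0.02 with a minimum of 500, and was -0.24 without the adjustment of library factors and -0.01 with the shrunken values. The sign of the median thus depended on the centring and on the limit. The count of called genes was 0 under each alternative limit and set of libraries, and at an unadjusted p below 0.05. These counts reuse the same deposited p-values, of which the smallest among the 25 is 0.304, and show no stability. Unknown depth and standard errors of at least 1.85 on the log2 scale limit what could be detected. For an unadjusted DESeq2 p below 0.05, the estimated difference had to exceed 12.3-fold for Lars2 and 41.3-fold for Kmt2d. These were the lowest and highest of the 25, and an adjusted p below 0.05 needs at least as large an estimate. This is a limit on the estimate and not on the true difference.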
